A study of Mus musculus with 9 samples.

Results

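The Notch pathway genes described here are 8 genes of the pathway's core: the receptors Notch1, Notch2 and Notch3, the ligands Dll1, Jag1 and Jag2, the target gene Hes1 and the glycosyltransferase Lfng. They were measured in orofacial tissue of mouse embryos on gestation days (GD) 12, 13 and 14. All probe sets to which the array annotation gave exactly 1 symbol, that of a member, were taken, which gave 10 probe sets of 7 genes among 12488 probe sets. Jag1 had no such probe set and was not analysed here. Total RNA of each day was hybridized to 3 one-colour oligonucleotide arrays. The labels give no strain, treatment or pooling for any day and do not say whether the 3 arrays of a day came from separate litters. Every p-value therefore measures only the spread between these samples.

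Notch signalling passes between touching cells. A Delta or Jagged ligand on one cell binds a Notch receptor on its neighbour, and the receptor is then cut by an ADAM protease and by gamma-secretase. The freed intracellular domain enters the nucleus, binds the DNA-binding protein Rbpj and turns on genes such as the HES and HEY repressors. Fringe enzymes such as Lfng add sugars to the receptor and shift its response between Delta and Jagged ligands. In the mouse palate, Jag2 is produced in oral epithelium, and its loss leads to fusion of palatal shelves with the tongue and to cleft palate.

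Among the members, Lfng and Hes1 are themselves known targets of Notch signalling. The 250 bases before the Lfng start site are shown because they hold the core motif of Rbpj, TGGGAA, on both strands. They lie at chr5:140607091-140607340 on the plus strand of GRCm38.p6 (RefSeq). Capitals mark the motif, which stands 108 to 103 bases before the start on the strand of the gene, and 135 to 130 bases before it as its complement; these stretches do not overlap.
Lfng: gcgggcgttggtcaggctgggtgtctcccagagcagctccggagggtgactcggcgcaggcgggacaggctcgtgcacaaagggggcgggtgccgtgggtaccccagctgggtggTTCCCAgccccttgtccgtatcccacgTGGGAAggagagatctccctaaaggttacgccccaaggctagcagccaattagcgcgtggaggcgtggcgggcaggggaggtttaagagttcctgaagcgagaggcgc
Searched on both strands over windows of 300 bases that run to 50 bases past the start, the motif was found in 25.56% of 32851 RefSeq windows. Windows were listed for 7 members, all but Hes1. Of these 8 windows, 1 held the motif, that of Lfng. A match is a description of the letters and not a bound site.

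Array values are the deposited intensities, a linear scale; trimmed by 2% at either end, every array averaged 150.1. Array medians lay between 47.15 and 56.95, and arrays of the same day correlated at 0.951 to 0.969 across probe sets. The third array of each day stood apart. The 3' to 5' ratio of the actin control is a measure of RNA and labelling quality. It was 1.25 to 1.42 on the third arrays and 1.54 to 2.44 on the other 6. Among those 6, GD12 had the lowest actin ratios (1.54, 1.76), GD13 came next (2.09, 2.23), and the highest were from GD14 (2.44, 2.29). Outside the third arrays this ratio therefore rose with gestation day. For the Gapdh control the ratio was 0.802 to 0.851 on the third arrays and 1.09 to 1.29 on the others. Of 9 tested markers of facial mesenchyme, Msx1 fell between GD14 and GD12 (584 ± 45.3 on GD14, 1145 ± 209 on GD12; SD, n = 3 each; adjusted p = 0.0142). Its call was lost without the first GD12 array (adjusted p = 0.0551), without the first GD14 array (0.0666) and with only the GD12 and GD14 arrays (0.0617). The other tested mesenchyme markers did not pass. Of these, Dlx5 (log2 0.62, adjusted p = 0.0585) and Prrx2 (log2 0.12, adjusted p = 0.828) were higher on GD14 than on GD12. The rest were lower, and the median log2 difference over the 9 was -0.38. The 9 intensities summed to 4750 to 4935 on GD12, 3972 to 4179 on GD13 and 3792 to 4155 on GD14. None of the 9 was at 0 on any array.

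No member passed the test between days. Intensities were compared as log2(intensity + 3) with limma across 9326 probe sets, with Benjamini-Hochberg adjustment over all of them, and an adjusted p under 0.05 counted as changed. Probe sets with a mean at or under an intensity of 10.4, the 25th percentile, were not tested. Of the 10 member probe sets 9 were tested, and these covered all 7 genes. Between GD13 and GD12, 0 of 9 passed, where 0.643% of all tested probe sets did. Between GD14 and GD13, 0 of 9 passed (0.0429% of all), and between GD14 and GD12, 0 of 9 (4.3% of all). In the same order of comparisons, the days did not overlap in 0, 1 and 0 of the 9, where this was so for 18.5%, 13% and 22.3% of all tested. The moderated F-test over the 3 days called 0 of 9 (2.58% of all), and the test of the second daily step against the first called 0 of 9 and 0% of all. Without adjustment, 0 of 9 had a limma p under 0.05 in any of these 5 tests. The shares of all tested probe sets that did were 11% for GD13 against GD12, 7.18% for GD14 against GD13 and 17.5% for GD14 against GD12. They were 14.2% for the F-test and 4.86% for the step difference. The lowest adjusted p of a member was 0.471, that of Notch1 between GD14 and GD12.

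**Figure D1:**
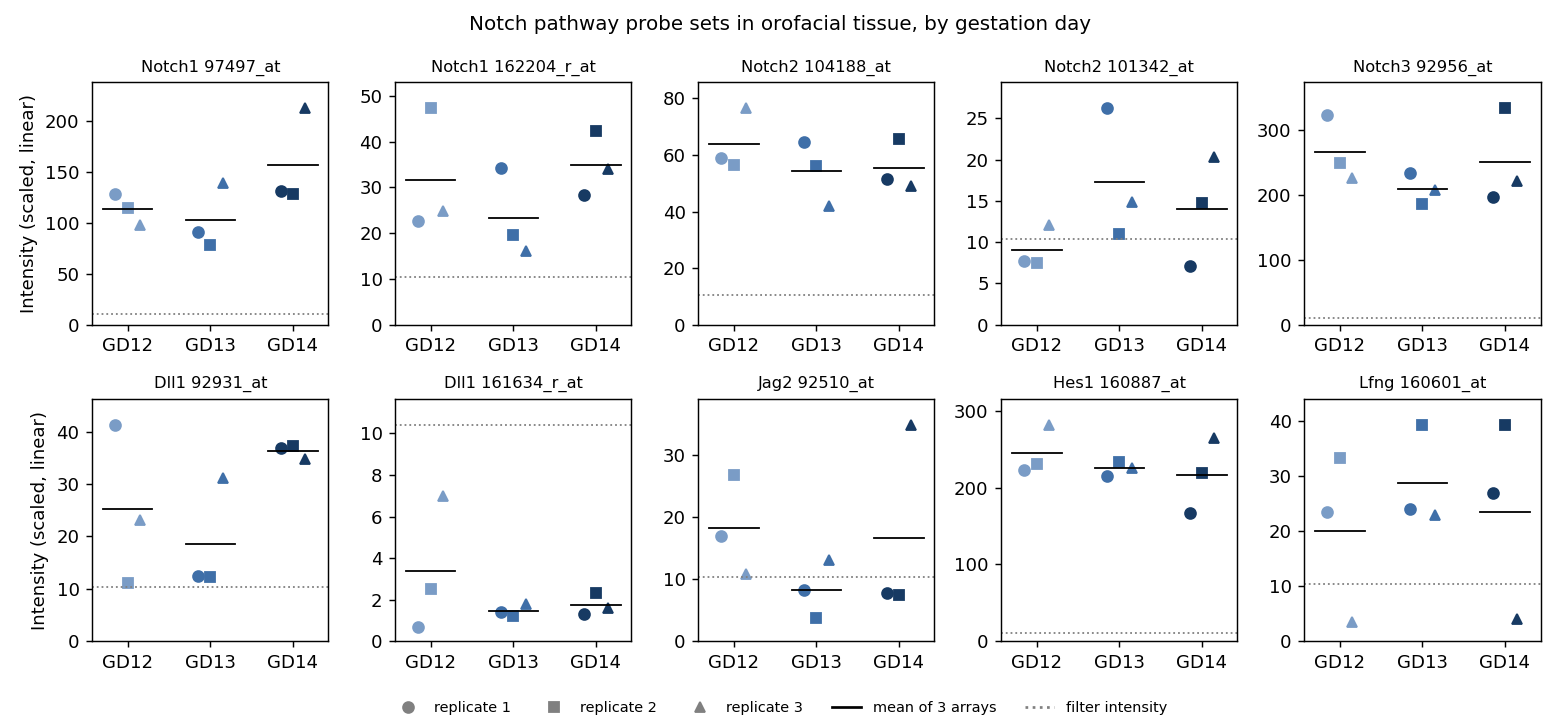
Intensity (linear, scaled by the authors) of the 10 Notch pathway probe sets on each of the 9 arrays, by gestation day; symbols mark the replicate number, bars the mean of 3 arrays and the dotted line the filter intensity of 10.4. All 3 days overlap in each panel except GD14 with GD13 in the brighter Dll1 probe set, and the second Dll1 probe set lies under the filter on all 9 arrays.

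Notch1 is a receptor that serves many epithelial and vascular cells. Its brighter probe set, 97497_at, had GD12 values of 128, 115 and 97.7, GD13 values of 90.7, 77.9 and 140 and GD14 values of 132, 128 and 213. Day means were 114 ± 15.4, 103 ± 32.6 and 158 ± 47.9 (SD, n = 3 each), so that GD14 was highest and GD13 lowest, with overlap between all days. The third array was the highest of its day on GD13 and GD14. The log2 difference of GD14 minus GD13 was 0.61 (SE 0.27, 95% interval -0.0075 to 1.22, limma adjusted p = 0.704), and that of GD14 minus GD12 was 0.43 (SE 0.27, adjusted p = 0.471). Without the third arrays, a setting chosen after seeing the data, GD13 still had the lowest mean (84.3, with 122 on GD12 and 130 on GD14). The difference of GD14 minus GD13 was then 0.61 (SE 0.15, adjusted p = 0.366), and that of GD13 minus GD12 was -0.51 (SE 0.15, adjusted p = 0.219). The difference of GD14 minus GD12 turned on the third arrays: it was 0.095 without all of them (adjusted p = 0.783) and 0.20 without that of GD14 alone (adjusted p = 0.739). With the actin ratio as a covariate it was 0.70 with adjusted p = 0.0758, the lowest that any member had in any alternative fit. On the first and second arrays the actin ratio rose with the day. Neither this fit nor those without the third arrays therefore fully separated day from array quality.

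The second Notch1 probe set, 162204_r_at, carries the array maker's suffix for sets whose probes broke some selection rules. It was dimmer, with day means of 31.6 ± 13.6 on GD12, 23.3 ± 9.62 on GD13 and 35.0 ± 7.04 on GD14 (SD, n = 3 each). Its order of days was that of the brighter probe set, with a log2 difference of 0.58 for GD14 minus GD13 (SE 0.33, adjusted p = 0.822). Both probe sets had their lowest mean on GD13, but within GD13 they disagreed. The third array was the highest of the 3 for 97497_at and the lowest for 162204_r_at, at 16.1 against 34.2 and 19.5.

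Notch2, a receptor with roles in skeletal and vascular development, had GD12 values of 58.9, 56.6 and 76.5, GD13 values of 64.5, 56.0 and 42.1 and GD14 values of 51.5, 65.7 and 48.9 by its brighter probe set, 104188_at. The means of 64.0 ± 10.9, 54.2 ± 11.3 and 55.4 ± 9.04 (SD, n = 3 each) lay within the spread of each other. The difference of GD14 minus GD12 was -0.20 (95% interval -0.67 to 0.28, adjusted p = 0.7). The dimmer probe set, 101342_at, had 3 of 9 arrays at or under the filter intensity and day means of 9.10 ± 2.60, 17.3 ± 7.91 and 14.0 ± 6.63 (SD, n = 3 each). It pointed the other way, with 0.70 for GD13 minus GD12 (SE 0.36, adjusted p = 0.533) against -0.24 by the brighter one (adjusted p = 0.747). Neither passed.

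Notch3, the receptor of pericytes and vascular smooth muscle, had GD12 values of 324, 250 and 226, GD13 values of 234, 186 and 208 and GD14 values of 196, 333 and 221. Its day means were 267 ± 50.7, 209 ± 23.6 and 250 ± 73.0 (SD, n = 3 each). The days overlapped, and the difference of GD14 minus GD12 was -0.11 (95% interval -0.64 to 0.41, adjusted p = 0.864). Of 6 tested markers of mural cells and smooth muscle 2 rose between GD14 and GD12, the smooth muscle actin Acta2 (432 ± 116 on GD14, 130 ± 16.2 on GD12) and the actin-binding protein Tagln (171 ± 11.8 on GD14, 75.0 ± 17.3 on GD12; SD, n = 3 each). Without the third arrays the call of Tagln was lost (adjusted p = 0.0718). The other 4 did not pass: the pericyte markers Pdgfrb (log2 -0.36, adjusted p = 0.373) and Rgs5 (log2 -0.16, adjusted p = 0.844), Mcam (log2 0.44, adjusted p = 0.283) and Des (log2 1.23, adjusted p = 0.0661), the last of which passed in 4 alternative fits. Acta2 was the largest part of the GD14 sum of the 6 genes on each array. The 6 genes summed to 875 to 1180 on GD14 and 509 to 618 on GD12, none was at 0 on any array, and their part in the Notch3 values was not tested. Tissue RNA cannot tell fewer cells of a type from less RNA per cell.

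Among the ligands, Dll1 was the only member of which 2 days did not overlap. Dll1, a Delta ligand of neural progenitors and forming somites, had GD12 values of 41.3, 11.2 and 23.2, GD13 values of 12.5, 12.2 and 31.1 and GD14 values of 36.9, 37.3 and 34.7 by probe set 92931_at. All 3 GD14 values were above all 3 of GD13, while GD12 spanned both. The means were 25.2 ± 15.2, 18.6 ± 10.8 and 36.3 ± 1.40 (SD, n = 3 each). The difference of GD14 minus GD13 was 0.97 (SE 0.43, 95% interval -0.002 to 1.95, adjusted p = 0.694). Such separation between GD14 and GD13 was seen in 1 of 9 member probe sets and in 13% of all tested. The other Dll1 probe set, 161634_r_at, was at 0.7 to 7.0 on the 9 arrays, under the filter intensity on each, and was not tested.

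Jag2, the Jagged ligand of oral epithelium, was dim and varied most on GD14. Its probe set had GD12 values of 16.9, 26.7 and 10.8, GD13 values of 8.2, 3.7 and 13.0 and GD14 values of 7.7, 7.4 and 34.8, with 4 of 9 arrays at or under the filter intensity. The highest of all values was that of the third GD14 array. Means were 18.1 ± 8.02, 8.30 ± 4.65 and 16.6 ± 15.7 (SD, n = 3 each), and GD14 minus GD12 was -0.32 (SE 0.54, 95% interval -1.54 to 0.91, adjusted p = 0.829). Without the third arrays the difference was -1.20 (SE 0.32, adjusted p = 0.13), and GD13 minus GD12 was -1.49 (SE 0.32, adjusted p = 0.163). GD12 had the highest mean with and without the third arrays, but at these intensities the size of a log2 difference depends on the added 3. In the same samples 3 of 7 tested epithelial genes rose between GD14 and GD12, the keratins Krt8 (298.5 ± 42.8 on GD14, 127 ± 15.6 on GD12), Krt19 (180 ± 11.5 on GD14, 20.0 ± 12.5 on GD12) and Krt6a (862 ± 83.2 on GD14, 99.2 ± 15.9 on GD12; SD, n = 3 each). Without the third arrays the call of Krt19 was lost (adjusted p = 0.0668). The general epithelial markers Trp63 (log2 -0.21, adjusted p = 0.546) and Cdh1 (log2 -0.02, adjusted p = 0.978) did not pass between these days, nor did Krt18 (log2 0.77, adjusted p = 0.124) and Epcam (log2 0.71, adjusted p = 0.053). Epcam did pass the moderated F-test over the days (adjusted p = 0.0405). With the arrays paired by number Epcam passed between GD14 and GD12 (adjusted p = 0.0392), and with array weights both Epcam (0.0291) and Krt18 (0.0428) did. Krt6a was the largest part of the GD14 sum of these genes on each array. The 7 epithelial genes summed to 1705 to 1827 on GD14 and 600 to 646 on GD12, and none was at 0 on any array. Their part in the Jag2 values was not tested.

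Hes1, a repressor that Notch signalling induces in many tissues, was the steadiest member. It had GD12 values of 223, 231 and 282, GD13 values of 216, 233 and 226 and GD14 values of 167, 220 and 265. The highest of its 9 values was 1.69 times the lowest, the smallest such ratio among the 10 probe sets. Day means were 245 ± 32.0, 225 ± 8.76 and 217 ± 49.2 (SD, n = 3 each), and neighbouring days overlapped. The difference of GD14 minus GD12 was -0.19 (SE 0.19, adjusted p = 0.689). Its 95% interval, -0.63 to 0.25, lay within 1 log2 unit of 0, as did those of GD13 minus GD12 (-0.55 to 0.32) and GD14 minus GD13 (-0.51 to 0.36).

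Lfng, the fringe enzyme whose promoter is shown above, had GD12 values of 23.4, 33.3 and 3.5, GD13 values of 24.0, 39.3 and 23.0 and GD14 values of 27, 39.3 and 4.0. The third arrays of GD12 and GD14 were far below all others, while the 6 first and second arrays lay between 23.4 and 39.3. Means were 20.1 ± 15.2, 28.8 ± 9.14 and 23.4 ± 17.9 (SD, n = 3 each), and GD14 minus GD12 was 0.17 (SE 0.77, 95% interval -1.57 to 1.91, adjusted p = 0.941). Without the third arrays it was 0.20 (SE 0.32, 95% interval -0.63 to 1.03, adjusted p = 0.784). On the third arrays neuronal markers were low as well. The 10 tested neuronal genes summed to 1823, 1439 and 1397 on the third arrays of GD12, GD13 and GD14. On the other 6 arrays they summed to 1724 to 3364, and 5 of the 10 were lower on the third array than on both others on every day. The share of all tested genes for which this held was not computed. None of the 10 was listed at 0 on any array. Between GD14 and GD12 their median log2 difference was -0.79, and 1 of 10 passed, the microtubule protein Mapt. By its brightest probe set it fell (68.1 ± 15.2 on GD14, 257 ± 118 on GD12; SD, n = 3 each; adjusted p = 0.032). That call was lost in 8 of the 9 fits that left out 1 array, with adjusted p of 0.0504 to 0.112, and with only the GD12 and GD14 arrays (0.0867). The other tested Mapt probe sets did not pass, with log2 -0.96 (adjusted p = 0.0761) and -0.28 (adjusted p = 0.831). In the latter the days overlapped (82.3 ± 36.1 on GD14, 96.1 ± 23.6 on GD12; SD, n = 3 each). The part of neuronal genes in the Lfng and Dll1 values was not tested.

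**Figure D2:**
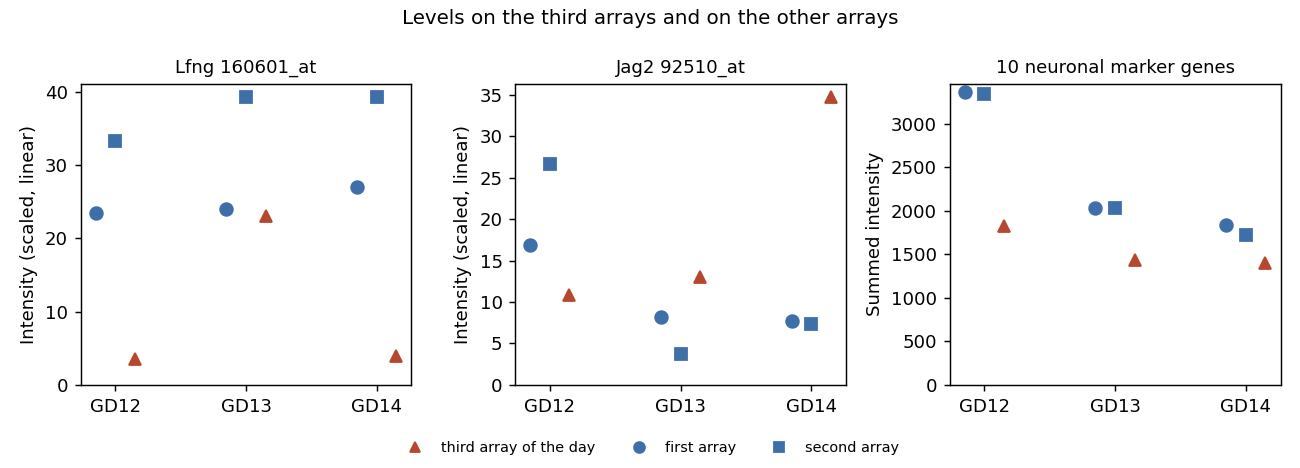
Intensity (linear) of Lfng, of Jag2 and of 10 tested neuronal marker genes summed, on each array by gestation day; triangles are the third arrays, circles and squares the first and second. Lfng is at 3.5 and 4.0 on the third arrays of GD12 and GD14 and at 23.4 or more on the first and second arrays, Jag2 is highest on the third array of GD14, and the neuronal sum is lowest on the third array of each day.

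The precision of these null results differed between members. Between GD14 and GD12 the 95% interval lay within 1 log2 unit of 0, a 2-fold difference, for 4 of 9 member probe sets: those of Hes1 and Notch3, the brighter one of Notch2 and the dimmer one of Notch1. The share was 63.5% among all tested probe sets. It was 4 of 9 between GD13 and GD12 (68.1% of all) and 3 of 9 between GD14 and GD13 (71.5% of all). For Lfng, Jag2, Dll1 and the dimmer Notch2 probe set the intervals reached past 1 log2 unit in each of the 3 comparisons, so a 2-fold difference in at least one direction was not excluded. Those of both Notch1 probe sets did so in some of these comparisons. The median log2 difference of the 9 was -0.24 for GD13 minus GD12, 0.22 for GD14 minus GD13 and 0.17 for GD14 minus GD12. Over all tested probe sets these medians were 0.03, -0.03 and -0.02.

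**Figure D3:**
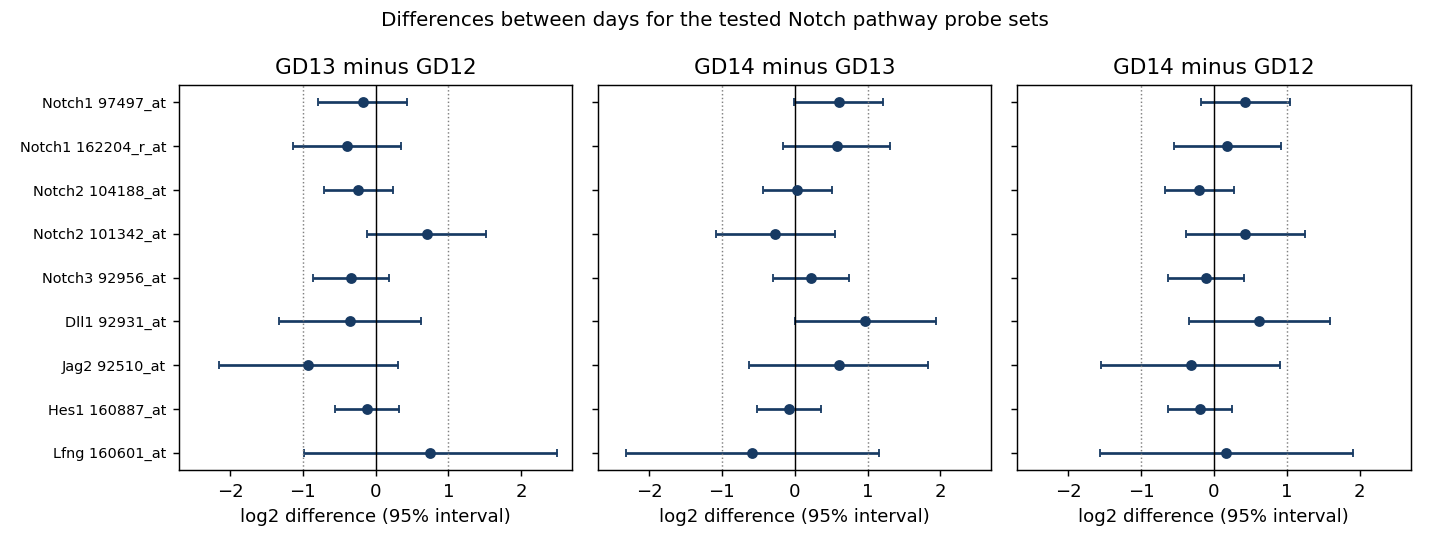
Log2 difference between days for the 9 tested Notch pathway probe sets, with 95% intervals from limma; dotted lines mark 1 log2 unit either side of 0. Every interval includes 0, those of Hes1 are the narrowest and those of Lfng the widest.

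Since no member passed the F-test, the genes most alike in pattern were taken for the 2 members with its smallest p, Notch1 and Dll1. Likeness was Pearson's r of log2 values over the 9 arrays, a description in which the arrays share their quality differences. Nearest to Notch1 (97497_at) among 8391 probe sets of other genes were the transcription factor Nfix (r = 0.962), the heparan sulphate proteoglycan agrin, Agrn (r = 0.956), and Cdk2ap2 (r = 0.946). Nearest to Dll1 (92931_at) were Sec16a, of the sites where vesicles leave the endoplasmic reticulum (r = 0.945), the GTPase-activating protein Git1 (r = 0.914) and the actin regulator Flii (r = 0.903). Nfix averaged 198 ± 29.0 on GD12, 214 ± 94.4 on GD13 and 379 ± 157 on GD14 (SD, n = 3 each).

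Among other genes of the pathway, the ligand-like gene Dlk1 rose. A list of 64 such genes had a tested probe set for 34, each taken by its brightest. Of these, 1 rose and 0 fell between GD14 and GD12, where 3.61% of all 6868 genes tested rose and 0.99% fell (4.6% together). The F-test called 1 of 34 (2.88% of all genes). In the daily steps 0 of 34 passed, both for GD13 against GD12 (0.728% of all genes) and for GD14 against GD13 (0.0437% of all genes). At an unadjusted p under 0.05, 8 of 34 differed between GD14 and GD12 (18.7% of all genes). The median log2 difference of the 34 was -0.05, beside -0.01 over all genes.

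Dlk1 encodes a transmembrane protein related to Delta that lacks the domain with which Delta ligands bind Notch. It had GD12 values of 1245, 1193 and 1009, GD13 values of 1671, 1598 and 1659, and GD14 values of 3085, 2789 and 1910. Each day lay above the one before without overlap. Separation of GD14 from GD12 was seen in 24.2% of all genes. The log2 difference of GD14 minus GD12 was 1.15 (SE 0.20, 95% interval 0.70 to 1.60, adjusted p = 0.014), a rise that was not called without the first GD14 array (adjusted p = 0.0615), without the second (0.0583) or with only the GD12 and GD14 arrays in the fit (0.0573). Over the same days some cell type markers rose and others fell. Of 10 tested genes of skeletal muscle 5 rose between GD14 and GD12, and none of the 10 was at 0 on any array. Their summed intensity was 2772 to 4297 on GD14 and 1281 to 1729 on GD12, and the third GD14 array was the lowest of its day for both the sum and Dlk1. Of 6 tested leukocyte genes 4 rose, with a median log2 difference of 1.04 over the 6, sums of 481 to 594 on GD14 and 218 to 297 on GD12, and none at 0 on any array. The others did not pass, Csf1r with log2 0.83 (adjusted p = 0.0615) and Fcgr3 with -1.06 (adjusted p = 0.347). Ptprc and Itgam of that list were not tested. Of 6 tested erythroid genes 1 rose between GD14 and GD12, the globin Hbb-b2, and 3 fell, the globins Hba-x, Hbb-bh1 and Hbb-y. Their median log2 difference was -0.79. The epithelial and mural genes that rose are given above, as are the mesenchyme gene Msx1 and the neuronal gene Mapt, which fell. Mapt passed by its brightest probe set only. The part of these cell types in the rise of Dlk1 was not tested.

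No HES or HEY relative passed. Of 9 genes listed, 5 were tested. Hey1, a repressor that Notch induces in vessels and mesenchyme, had GD12 values of 206, 347 and 208, GD13 values of 148, 145 and 208 and GD14 values of 134, 124 and 140. All GD14 values were below all GD12 values. Separation of these days, in either direction, was seen in 24.2% of all genes. For Hey1 the log2 difference was -0.88 (SE 0.24, adjusted p = 0.0827). The adjusted p was 0.038 when only probe sets above the median were tested and 0.0349 with trended and robust variances. Hes6, a relative that counteracts Hes1, had 141 ± 21.6 on GD14 and 118 ± 2.66 on GD12, and Hes2 had 28.5 ± 10.8 on GD14 and 26.1 ± 18.8 on GD12 (SD, n = 3 each).

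In the nucleus, Rbpj, the DNA-binding partner of all Notch receptors, had 73.1 ± 8.03 on GD14 and 95.3 ± 3.41 on GD12 (SD, n = 3 each; log2 -0.37, adjusted p = 0.26). Of the nuclear complex 5 of 9 listed genes were tested and 0 passed, including the acetyltransferases Crebbp (log2 -0.38, adjusted p = 0.377) and Kat2a (log2 -0.43, adjusted p = 0.769). A further acetyltransferase of the list, Kat2b, named after its value was seen, went the other way (log2 0.59, adjusted p = 0.134). Of 13 corepressors 8 were tested and 0 passed. The brightest were Ctbp1 (869 ± 127 on GD14, 898 ± 74.6 on GD12), the histone deacetylase Hdac2 (637 ± 106 on GD14, 727 ± 111 on GD12) and Ctbp2 (401 ± 52.4 on GD14, 502 ± 139 on GD12; SD, n = 3 each). The list's median log2 difference was -0.33. Its lowest values, named after they were seen, were those of the Groucho family genes Tle4 (log2 -0.81, adjusted p = 0.0547), Tle3 (-0.65, adjusted p = 0.204) and Tle1 (-0.51, adjusted p = 0.106). Tle5, a shorter member of the same family, had 0.28 (adjusted p = 0.482). Tle4 passed in 5 of its alternative fits, Tle3 and Tle1 in 1 each.

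At the membrane, 6 of 9 genes of Notch cleavage were tested and 0 passed. The proprotein convertase Furin, which cuts the receptor during its maturation, had 378 ± 68.9 on GD14 and 276 ± 36.1 on GD12 (log2 0.44, adjusted p = 0.251), and the gamma-secretase subunit Psenen had 239 ± 41.4 on GD14 and 178 ± 40.5 on GD12 (log2 0.43, adjusted p = 0.356; SD, n = 3 each). The protease Adam10 had a log2 difference of 0.20 by its brighter probe set (adjusted p = 0.635) and of -0.77 by the other (adjusted p = 0.429). Of 5 genes of Notch glycosylation 3 were tested and 0 passed. The other fringe enzymes were Rfng (394 ± 81.6 on GD14, 349 ± 66.6 on GD12) and Mfng (91.7 ± 20.2 on GD14, 102 ± 18.5 on GD12), and the glycosyltransferase Eogt had 113 ± 16.1 on GD14 and 97.2 ± 8.40 on GD12 (SD, n = 3 each). Of 13 genes of ubiquitination and endocytosis 5 were tested and 0 passed, among them the ubiquitin ligases Itch (log2 0.01, adjusted p = 0.985), Dtx2 (log2 -0.27, adjusted p = 0.571) and Dtx1 (log2 0.09, adjusted p = 0.892).

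**Figure D4:**
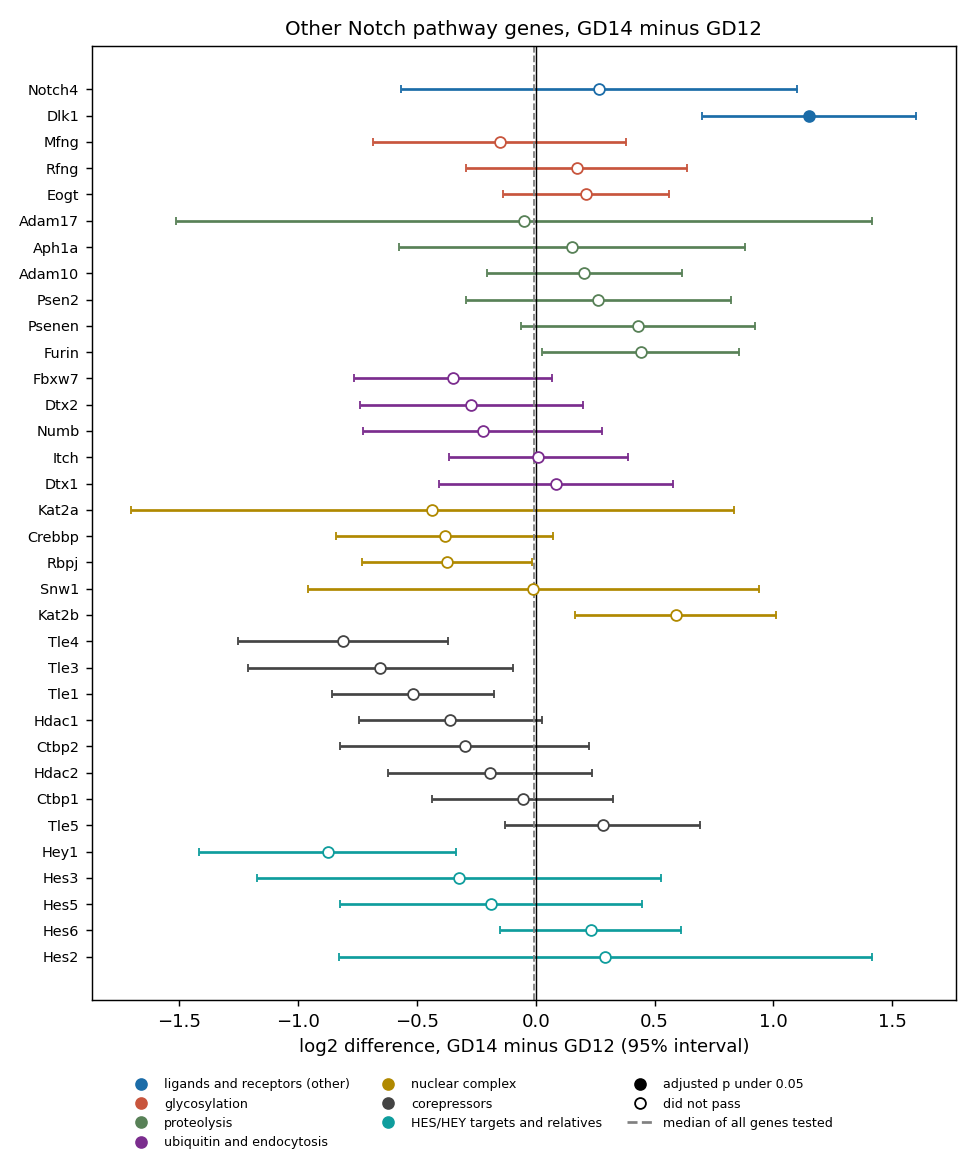
Log2 difference of GD14 minus GD12, with 95% intervals from limma, for 34 other Notch pathway genes by their brightest tested probe set, coloured by role; filled points passed an adjusted p of 0.05 and the dashed line is the median of all genes tested. Dlk1 is the one filled point, at 1.15.

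Endothelial genes, which share several Notch components, did not pass either. Of 11 tested endothelial markers 0 rose and 0 fell in each of the 3 comparisons, and their summed intensity was 1314 to 1405 on GD12, 1188 to 1428 on GD13 and 1498 to 1688 on GD14. The GD14 sums lay above those of both other days, and none of the 11 was at 0 on any array. Eng was the largest part of the GD14 sum on each array. Its log2 difference of GD14 minus GD12 was 0.42 (adjusted p = 0.448).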

How the data were processed

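The deposited table holds 1 intensity per probe set and array, a linear value. The authors had scaled arrays to a common trimmed mean, as the values show, and the image software is not given in the sources used here. The scaling was kept. Intensities were tested as log2(intensity + 3), the added value being near the 10th percentile, by limma (version 3.58.1, R 4.3.3) in one fit of 9 arrays with 3 day means (6 residual and 2.85 prior degrees of freedom). Control probe sets and those at or under the 25th percentile were left out. Code was checked on simulated data. The number of arrays limits the precision.

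Symbols came from the array annotation, with gene IDs looked up in the GRCm38.p6 gene table. Members, lists and tests were chosen with earlier results of these data known. Every member was named, and of each pathway list the passing genes, or else its 3 brightest. The Tle genes and Kat2b were named besides, after their values were seen. Of the epithelial, mural, neuronal, mesenchyme and erythroid lists the genes that passed between GD14 and GD12 were named, and some others after their values were seen. Passing genes of the muscle and leukocyte lists were only counted. Leukocyte genes that did not pass or were not tested, and the endothelial gene Eng, were named after their values were seen. Arrays with the same replicate number had residual correlations of 0.19 to 0.42 across days, so a fit that pairs them (the replicate block) was run as an alternative; the fit reported does not pair arrays. The alternatives were other scalings, added values, filters, variance models, array weights, the replicate block, the actin ratio, and omitted arrays. Python 3.11.15 with pandas 2.3.3 and matplotlib 3.10.9 made tables and plots.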

Additional observations from a re-analysis of the deposited data

How the results depend on the processing

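No member probe set passed in any of the alternatives tried for the 5 tests. With 3 arrays a day the intervals of Dll1, Jag2, Lfng and the dimmer Notch2 probe set reached past a 2-fold difference in every comparison of days, and those of Notch1 in some. The cause of each change of value given here was not tested.

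Over all probe sets, 60 passed for GD13 against GD12, and this count was 35 with no filter, 94 with the filter at the median, 115 with trended and robust variances, 201 with array weights, 31 with only the groups compared and 10 without the third arrays, a setting chosen after seeing the data. For GD14 against GD13, 4 passed, and this was 2 with quantile normalization, with an added value of 1 and with only the groups compared, 16 with an added value of 11, 0 with no filter and without the third arrays, 19 with the filter at the median, 26 with trended and robust variances and 11 with array weights. For GD14 against GD12, 401 passed, against 615 with array weights and 227 with only the groups compared. With the replicate block, the pairing of arrays by number, it was 620 for GD14 against GD12 and 1 for the step difference, and no member passed. Of the other genes named, Epcam gained a call for GD14 against GD12. The step difference, 0 in limma, was 2 with the filter at the median and with trended and robust variances, and 1 with array weights. The F-test, with 241, gave 369 with trended and robust variances, 405 with array weights and 84 without the third arrays. Leaving out 1 array at a time gave 17 to 59 for GD13 against GD12, 0 to 4 for GD14 against GD13, 178 to 394 for GD14 against GD12 and 88 to 239 for the F-test.

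Signs turned only in differences that had not passed. Without the third arrays, Notch2 (104188_at) had 0.055 for GD13 minus GD12, -0.045 for GD14 minus GD13 and 0.011 for GD14 minus GD12, Lfng had 0.076 for GD14 minus GD13, and GD14 minus GD12 was -0.015 for Itch, -0.37 for Hes2 and 0.089 for Cdh1. The brighter Notch2 difference of GD14 minus GD13 was -0.053 with array weights and -0.0061 with the actin ratio as covariate. With that covariate GD14 minus GD12 was 0.16 for Jag2, -0.50 for Lfng, 0.066 for Mfng, 0.098 for Kat2a and 0.059 for Rgs5. Itch had -0.0048 with quantile normalization and -0.028 with median scaling.

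Leaving out 1 array, GD14 minus GD13 ranged from -0.12 to 0.17 and from -0.54 to 0.068 in the brighter and dimmer Notch2 probe sets, from -0.00098 to 0.38 in Notch3, from -0.011 to 0.92 in Jag2, from -0.23 to 0.10 in Hes1 and from -1.10 to 0.20 in Lfng. GD13 minus GD12 ranged from -0.77 to 0.054 in Dll1. GD14 minus GD12 ranged from -0.34 to 0.042 in Notch3, from -0.58 to 0.95 in Lfng, from -0.076 to 0.091 in Itch, from -0.041 to 0.17 in Dtx1, from -1.14 to 0.20 in Kat2a, from -0.15 to 0.057 in Ctbp1, from -0.19 to 0.068 in Cdh1, from -0.43 to 0.024 in Rgs5 and from -0.28 to 0.78 in Hes2. Tle4 passed with quantile normalization (adjusted p = 0.0469), an added value of 11 (0.0496), the filter at the median (0.023), array weights (0.0496) and without the second GD13 array (0.0471). Tle1 passed with array weights (0.0424) and Tle3 without the third GD12 array (0.0357).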
